A study of Mus musculus with 6 samples.

Results

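The genes described here encode proteins of the nucleolus that transcribe ribosomal RNA, cut and modify it, and assemble it with ribosomal proteins into ribosomal subunits. They were chosen by name from a list of 50 genes. A gene was taken as measured where the array annotation gave it a probe set (a group of array probes summarised to 1 value) with no other gene, and the brightest such probe set by its mean over all arrays stood for it. This gave 48 of the 50 genes, beside 19938 genes in the whole series. Ppan had a probe set that also named another gene, Noc2l had none listed in the annotation used here, and neither is described further.

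Ribosome production starts in the nucleolus, where RNA polymerase I copies the ribosomal DNA repeats into a long precursor RNA. Small nucleolar ribonucleoproteins (snoRNPs) modify this precursor, the small-subunit processome folds and cuts the part that becomes the small subunit, and a separate series of assembly factors matures the large subunit. Growing and dividing cells, among them B cell precursors and leukemia cells, make many ribosomes, and MYC is a known activator of many of these genes.

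RNA came from B cell precursors of mice of strain 129SvEv that had been transformed by BCR-ABL1, a fusion tyrosine kinase that drives a form of acute lymphoblastic leukemia. The cells of 3 samples were wild type for Etv5 and those of 3 were Etv5 knockout. Etv5 is a transcription factor of the ETS family, and the comparison asks which transcripts differ when it is missing. BCR-ABL1 was shared by both groups, so normal B cell precursors were not part of the comparison. The sources used here do not state the age of the mice, the kind of Etv5 deletion, or whether the 3 samples of a genotype were separate mice or cultures. If they were neither, the spread behind the p-values is a technical one. If they were separate cultures of the same mouse, that spread leaves out differences between mice and between transformations. Such differences could then not be told apart from genotype.

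All values are log2 signals, on which a difference of 1 is a doubling. Array medians lay between 7.79 and 7.84. The Etv5 probe set numbered among genes of its own chromosome had values of 9.30, 9.52 and 9.27 in the wild type against 8.97, 8.91 and 8.92 in the knockout (difference -0.43, limma adjusted p = 0.0467). A further one, numbered among genes of another chromosome, was higher in the knockout (11.76 ± 0.11 against 11.49 ± 0.031, SD, n = 3 each; limma adjusted p = 0.13). Where the probes lie relative to the deletion is not given. The 11 measured B cell precursor markers had mean signals from 9.39 (Rag1) to 14.27 (Igll1), and their average lay between 12.70 and 12.75 in the wild-type arrays and between 12.71 and 12.78 in the knockout arrays. The averages of 7 T cell, 9 myeloid and 8 stromal markers lay between 6.81 and 7.35 on every array, and no gene of these lists exceeded 8.82 on average. The 4 measured erythroid markers averaged between 8.66 and 8.72, with mean signals from 6.93 (Klf1) to 12.85 (Tfrc). Of all these markers, Pax5 and the myeloid marker Itgam were higher and Dntt was lower in the knockout by the test described next.

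Most nucleolar ribosome biogenesis genes differed little between the genotypes. The largest difference was that of Utp3, which encodes a protein of the small-subunit processome. Utp3 fell 1.39-fold in the knockout, and it was the only one of the 48 genes to pass limma with Benjamini-Hochberg adjustment over all 35556 probe sets at 0.05. None rose and 47 did not pass. Over 16 other settings, Utp3 passed in 9, Utp14a in 7 and Utp20 in 5. In 1 of the 16 the main fit was reused and only probe sets of other genes were exchanged. The results of Utp3, Utp14a and Utp20 were fixed in advance there, and the pass of Utp3 repeated its main call. Utp3 passed in 0 of the 6 fits that left out 1 sample. For comparison, 4.43% of all 19938 genes passed in either direction, 2.01% as lower and 2.42% as higher, and 2.43% of the 7321 genes at least as bright as Utp3 passed as lower, so 1 of 48 is near the background. With an adjusted p under 0.1 as the threshold, 3 of the 48 genes were lower, beside 2.67% of all genes. The share of the bright genes was not counted at this threshold. In RNA of bulk cells, fewer cells expressing a gene and less of its RNA per cell cannot be told apart. The 47 other genes differed by -0.27 to 0.05 log2 units, and the 95% intervals of their changes reached from -0.41 to 0.28. At an unadjusted limma p under 0.05, 4 of the 48 genes were lower and none was higher, beside 6.25% and 7.20% of all genes. Of the 7321 genes at least as bright as Utp3, 604 were lower and 660 higher at this threshold. The share of the 48 genes that were lower was thus near that of the bright genes.

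The small differences lay mostly on 1 side. Of the 48 genes, 40 had a lower mean in the knockout, or 83.3%, beside 51.8% of all genes and 51.4% of the 7321 bright genes, for which Utp3, the dimmest of the 48, set the limit. The median difference of the 48 genes was -0.06 log2 units and that of all genes -0.004. In 14 of the 48 genes all 3 knockout values lay below all 3 wild-type values and in none did they all lie above. The same separation held for 10.2% of all genes downward and 10.2% upward, and for 15.4% and 14.5% of the 7321 bright genes. The genes share the same 6 arrays and were not tested as a set. Counted over the other settings tried, between 37 and 42 of the 48 genes were lower.

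**Figure D1:**
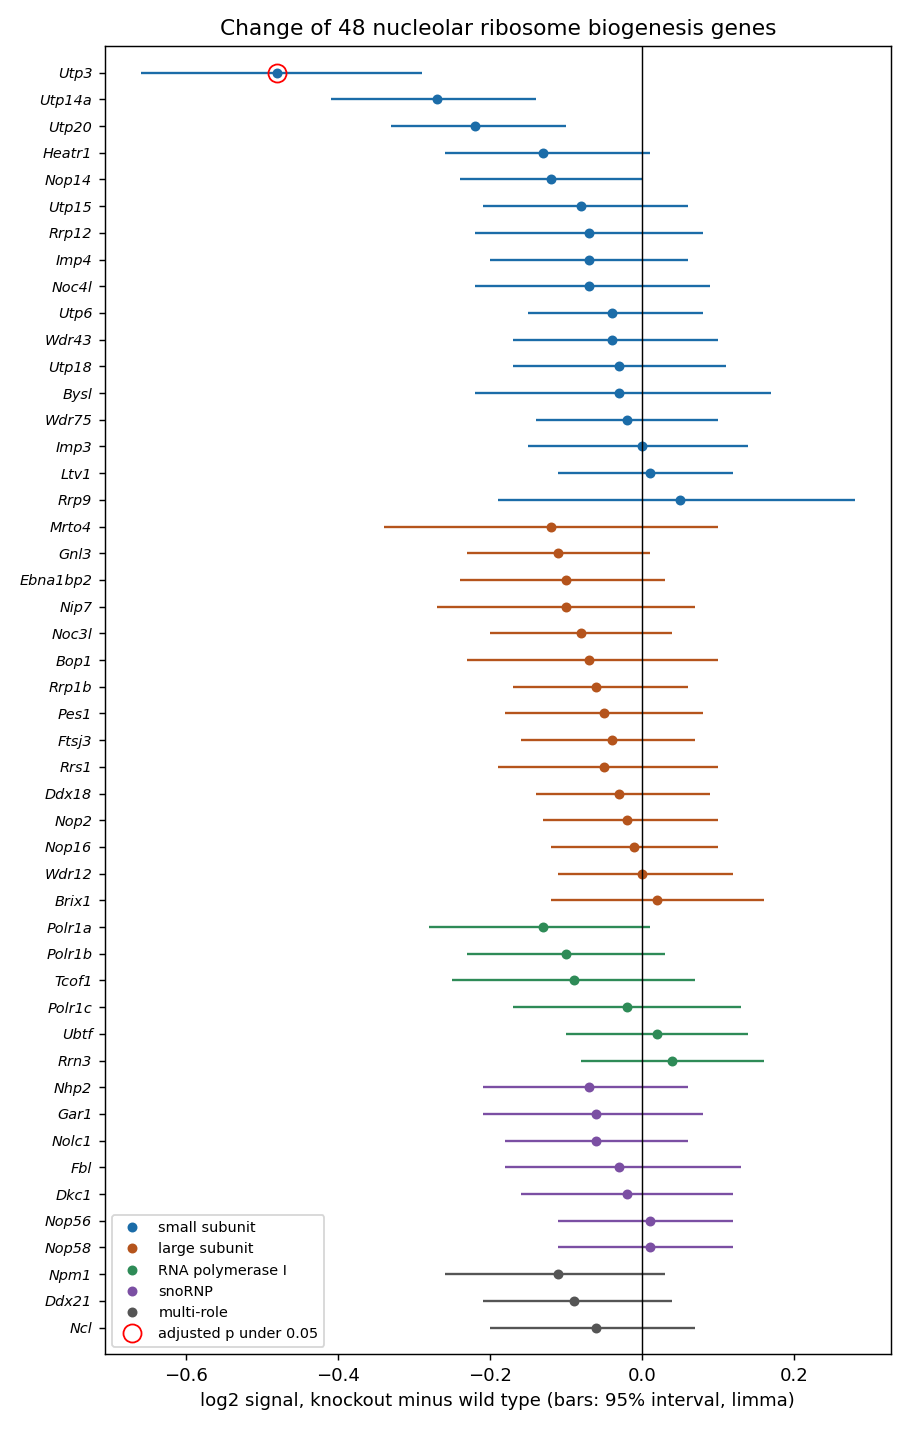
Change in log2 signal, knockout minus wild type, of the 48 measured genes (points) with the 95% interval from limma (bars), coloured and ordered by role. Utp3, ringed in red, lies at -0.48, and the points of the 47 other genes lie between -0.27 and 0.05.

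The arrays did not contribute equally to this shift. Taking each gene relative to its own mean over the 6 arrays, the median of the 48 genes was 0.013, 0.032 and 0.019 in wild-type samples 1, 2 and 3 and -0.047, 0.005 and -0.034 in knockout samples 1, 2 and 3. Knockout sample 2 was thus close to the wild type. The 7321 bright genes also moved from array to array, from -0.043 in knockout sample 1 to 0.051 in knockout sample 2. After subtraction of that array-wide movement, the medians of the 48 genes were 0.025, 0.034 and 0.002 in the wild type against -0.004, -0.047 and -0.026 in the knockout. On this scale it was knockout sample 1 and wild-type sample 3 that lay close together. Which knockout array looked most like the wild type therefore depended on the scale, while the 3 knockout medians stayed below the 3 wild-type medians on both. The part of array-wide movement in the shift was not tested.

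**Figure D2:**
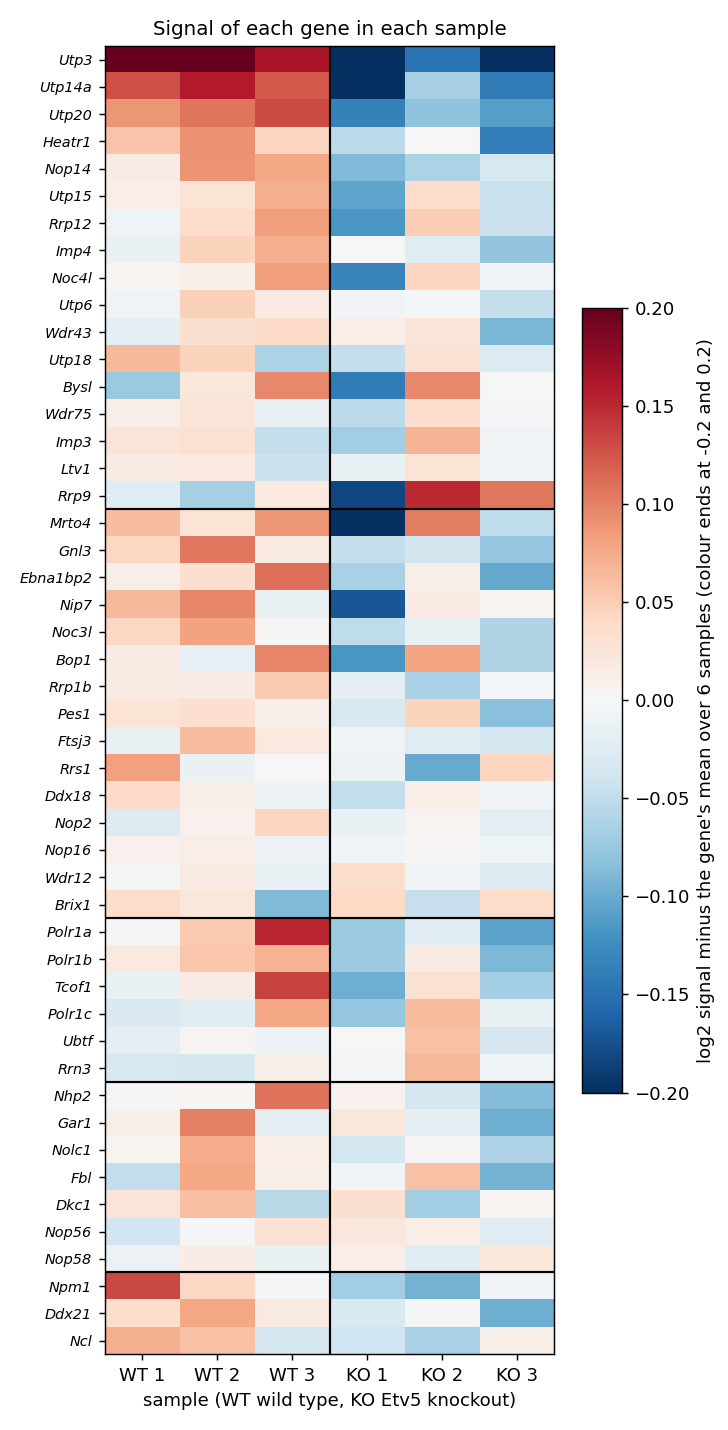
Heat map of log2 signal in each sample (columns) for the 48 measured genes (rows, by role in the order small subunit, large subunit, RNA polymerase I, snoRNP and multi-role), each relative to its own mean over 6 samples. Utp3, Utp14a and Utp20 are high in all 3 wild-type samples and low in all 3 knockout samples, while many genes below them are mixed.

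The 3 genes of smallest p all encode small-subunit processome proteins, and their promoter sequences are shown here because Etv5 binds DNA through an ETS domain and MYC through the E-box. Each sequence runs 5′ to 3′ on the gene's own strand, from 250 bases before to 50 bases after its RefSeq start in build GRCm38.p6. Capitals mark the ETS consensus CCGGAAGT or the E-box CACGTG. For Utp3 the window is chr5:88554212-88554511 on the plus strand, for Utp14a it is chrX:48256684-48256983 on the plus strand, and for Utp20 it is chr10:88826765-88827064 on the minus strand.
Utp3: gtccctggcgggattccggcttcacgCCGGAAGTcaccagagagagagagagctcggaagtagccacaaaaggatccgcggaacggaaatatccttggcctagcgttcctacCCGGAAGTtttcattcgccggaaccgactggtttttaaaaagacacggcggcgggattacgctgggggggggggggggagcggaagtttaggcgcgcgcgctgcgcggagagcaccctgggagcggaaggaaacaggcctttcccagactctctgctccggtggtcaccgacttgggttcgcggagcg
Utp14a: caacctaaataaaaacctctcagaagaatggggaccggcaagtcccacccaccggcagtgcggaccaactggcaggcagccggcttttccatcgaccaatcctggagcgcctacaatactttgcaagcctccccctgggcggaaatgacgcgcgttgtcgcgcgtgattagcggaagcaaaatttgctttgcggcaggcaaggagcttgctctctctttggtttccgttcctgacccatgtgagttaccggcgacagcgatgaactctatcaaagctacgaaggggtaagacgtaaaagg
Utp20: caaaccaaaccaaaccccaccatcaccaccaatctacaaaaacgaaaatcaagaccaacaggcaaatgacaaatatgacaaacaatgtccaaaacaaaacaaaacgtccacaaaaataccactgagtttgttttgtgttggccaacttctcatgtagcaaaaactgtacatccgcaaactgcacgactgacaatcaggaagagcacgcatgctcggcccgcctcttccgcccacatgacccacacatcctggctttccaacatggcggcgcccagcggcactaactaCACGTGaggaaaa

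The Utp3 window held the ETS consensus at 2 places, starting at bases 27 and 113 of the 300, and the Utp20 window held the E-box at base 288. The Utp14a window held neither. Both motifs were searched on both strands, the ETS consensus as CCGGAAGT and its reverse complement ACTTCCGG and the E-box as CACGTG, which is its own reverse complement; the letters of the motifs do not overlap each other. RefSeq promoter windows were found for 43 of the 50 listed genes. The ETS consensus stood in 12 of these 43 (27.9%) and in 4.31% of all 27025 genes with a window. The E-box stood in 8 of 43 (18.6%) and in 8.09% of all genes. The shares of all genes were taken without regard to signal, while the 48 measured genes had mean signals of 9.42 or more. Shares among the bright genes were not counted, and whether either motif is more frequent than in such genes was not tested. The median difference was -0.068 log2 units for the 10 measured genes with the ETS consensus and -0.046 for the 31 without it, and it was -0.033 for the 8 with the E-box and -0.062 for the 33 without it. A match describes the letters of these windows only.

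Among small-subunit factors, 1 of 17 genes fell, none rose and 16 did not pass. The median difference was -0.065 log2 units, and 15 of the 17 genes were below 0. Without knockout sample 1 this median was -0.042. Utp3, whose yeast relative Sas10 belongs to the processome, had log2 signals of 9.75, 9.65 and 9.58 in the wild type against 9.07, 9.27 and 9.20 in the knockout. The groups were well apart, with the highest knockout value below the lowest wild-type value, in the gene with the dimmest probe set of all 48. The fall was 0.48 log2 units (difference -0.48 ± 0.076, SE; 95% interval -0.66 to -0.29; limma adjusted p = 0.0277). It kept its size but lost its call whichever of the 6 samples was left out, with changes from -0.52 to -0.42 and adjusted p from 0.053 to 0.116.

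Utp14a, which in yeast activates a helicase of the processome, gave 10.91, 10.94 and 10.90 in the wild type against 10.57, 10.71 and 10.63 in the knockout. The groups did not overlap, and the wild-type samples were nearly equal. The difference of -0.27 ± 0.055 (SE; 95% interval -0.41 to -0.14) missed the threshold with a limma adjusted p of 0.0665, which ranged from 0.0176 to 0.251 over the other settings. Utp20, a large scaffold protein of the same particle, gave 11.46, 11.47 and 11.50 against 11.23, 11.29 and 11.26. Its groups were also apart, by a narrower gap. The difference was -0.22 ± 0.047 (SE; 95% interval -0.33 to -0.10; limma adjusted p = 0.0841, range 0.0181 to 0.29).

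**Figure D3:**
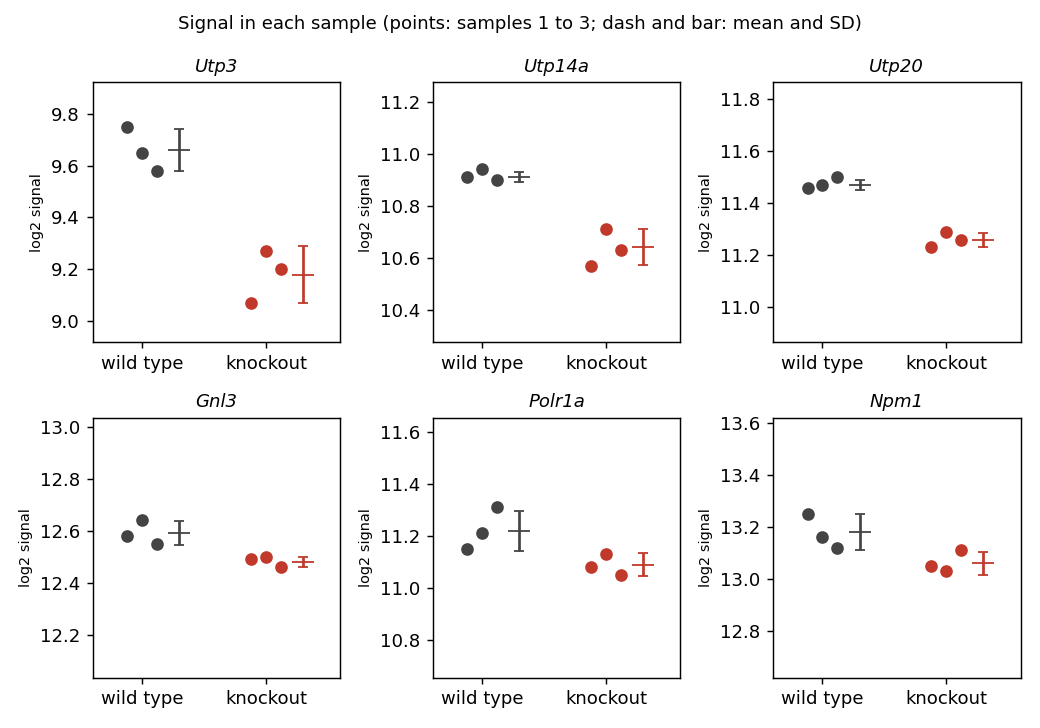
Log2 signal in each sample for 6 genes (points, samples 1 to 3 from left to right in each genotype), with the mean and SD of each genotype beside them and every axis spanning 1 log2 unit. Utp3, Utp14a and Utp20 show the widest gaps, and the gaps of Gnl3, Polr1a and Npm1 are narrower than the range within the wild type.

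The remaining small-subunit genes lay closer to 0. Heatr1, the relative of yeast Utp10, and Nop14, a processome assembly protein, differed by -0.13 and -0.12, and in both all knockout values were below all wild-type values. The processome proteins Utp15, Utp6, Utp18, Wdr43 and Wdr75 differed by -0.08, -0.04, -0.03, -0.04 and -0.02. None of these passed (limma adjusted p from 0.447 for Nop14 to 0.983 for Wdr75). Imp3, which belongs with Imp4 to the snoRNP that guides processome assembly and has the highest mean signal of the small-subunit probe sets, gave 13.12, 13.12 and 13.04 against 13.02, 13.16 and 13.08. These values overlapped fully, with a 95% interval from -0.15 to 0.14. Imp4 differed by -0.07, Noc4l, the partner of Nop14, by -0.07, and Rrp12, an export factor, by -0.07. The late maturation factors Bysl and Ltv1 differed by -0.03 and 0.01. Rrp9, a further protein of the snoRNP of Imp3, had the most positive difference of the 48 genes, 0.05, but its knockout samples were spread widely (10.51, 10.84 and 10.79).

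Utp3 stood in a stretch of chromosome 5 in which both flanking genes also fell. In the gene order of GRCm38.p6, its neighbours are Jchain, which encodes the joining chain of polymeric antibodies, and Rufy3, a RUN and FYVE domain protein. Jchain gave 8.64, 8.60 and 8.68 in the wild type against 6.70, 7.22 and 6.98 in the knockout, a 3.17-fold fall (difference -1.67 ± 0.13, SE; limma adjusted p = 0.00182). Rufy3 gave 10.43, 10.37 and 10.45 against 9.79, 9.84 and 9.84, a 1.51-fold fall (difference -0.60 ± 0.051; limma adjusted p = 0.00245). Both groups of values were fully separated in each gene, and both genes passed whichever of the 6 samples was left out. Of the 5 measured genes on either side of Utp3, these 2 fell and 8 did not pass, among them Grsf1 and Dck (-0.13 each, limma adjusted p = 0.39 and 0.326). In Grsf1, Mob1b and Dck all 3 knockout values also lay below all 3 wild-type values, though the nearest values of Mob1b were equal to 2 decimals. In Prol1, Amtn, Ambn, Enam and Slc4a4 the groups overlapped. Such a separation downward held for 10.2% of all genes and 15.4% of the bright genes. For Utp14a and Utp20 the window was narrower, with 2 genes on either side. The 4 measured neighbours of Utp14a differed by 0.00 to 0.04 and the 4 of Utp20 by -0.08 to 0.03, and none passed. These neighbours were looked at after the values of the 3 genes were seen, and the part of the neighbourhood in the fall of Utp3 was not tested.

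**Figure D4:**
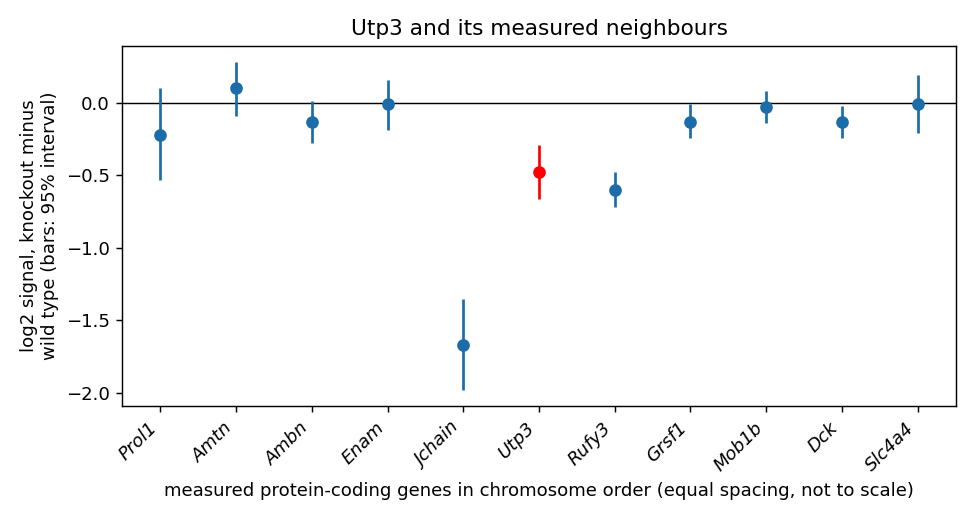
Change in log2 signal, knockout minus wild type, with the 95% interval from limma, of Utp3 (red) and the 5 measured protein-coding genes on either side of it (blue), in chromosome order and not to scale. Jchain at -1.67, Utp3 at -0.48 and Rufy3 at -0.60 are adjacent, and the other 8 genes lie between -0.22 and 0.10.

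Among large-subunit factors, none of 15 measured genes passed limma and none had an unadjusted p under 0.05. Of these, 13 were below 0, the median difference was -0.046 log2 units and the range was -0.12 to 0.02. Gnl3 (nucleostemin), a GTP-binding protein of dividing cells, gave 12.58, 12.64 and 12.55 in the wild type against 12.49, 12.50 and 12.46 in the knockout. The groups were apart by a gap of the order of the spread within them (difference -0.11 ± 0.050, SE; limma adjusted p = 0.534). Ebna1bp2, an early assembly factor, gave 11.04, 11.06 and 11.14 against 10.96, 11.04 and 10.92, so that the nearest values of the groups were equal to 2 decimals (difference -0.10, limma adjusted p = 0.654). Noc3l gave 11.56, 11.60 and 11.52 against 11.47, 11.50 and 11.46, with a small gap (difference -0.08, limma adjusted p = 0.695). Nop16, with the highest mean signal of this role, gave 12.89, 12.89 and 12.87 against 12.87, 12.88 and 12.87. It was the steadiest of these genes, with a 95% interval from -0.12 to 0.10.

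The complex of Pes1, Bop1 and Wdr12, which acts on the large-subunit precursor, differed by -0.05, -0.07 and 0.00. The helicase gene Ddx18 differed by -0.03, and the RNA methyltransferase genes Nop2 and Ftsj3 by -0.02 and -0.04. The assembly factor genes Rrs1, Brix1, Nip7, Mrto4 and Rrp1b differed by -0.05, 0.02, -0.10, -0.12 and -0.06. Mrto4 had the largest difference of the role and also the widest knockout spread (10.30, 10.63 and 10.48), and its groups overlapped.

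Of these genes, Wdr12, Ddx18, Mrto4 and the snoRNP gene Fbl had a pair of probe sets each. For 3 of the 4, the brighter probe set, which stands for the gene here, was numbered among genes of another chromosome: 0 of its 10 nearest named probe sets lay on the chromosome of Wdr12, Ddx18 or Mrto4. It is not known from the files whether these probe sets detect the gene itself or a copy of it elsewhere. The dimmer probe sets, numbered among genes of the right chromosome, differed by 0.065 for Wdr12, -0.053 for Ddx18 and -0.114 for Mrto4, beside 0.002, -0.026 and -0.118 for the brighter ones. No probe set of these genes passed limma (adjusted p from 0.761 to 0.999). All other members had their only probe set among genes of their own chromosome.

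Among the RNA polymerase I genes, none of 6 passed limma, none had an unadjusted p under 0.05 and 4 were below 0, with a median of -0.054 log2 units. This median was -0.016 without wild-type sample 3, -0.024 without knockout sample 1 and -0.091 without knockout sample 2. Polr1a, the largest subunit of the enzyme, gave 11.15, 11.21 and 11.31 in the wild type against 11.08, 11.13 and 11.05 in the knockout. Its groups were apart by less than the range within the wild type (difference -0.13 ± 0.061, SE; limma adjusted p = 0.515). Polr1b, the second-largest subunit, gave 12.40, 12.44 and 12.45 against 12.31, 12.40 and 12.29, with knockout sample 2 just under the wild type (difference -0.10, limma adjusted p = 0.652). Tcof1, which encodes the scaffold protein treacle, gave 11.30, 11.33 and 11.45 against 11.22, 11.34 and 11.25, and the groups overlapped (difference -0.09, limma adjusted p = 0.787). Both initiation factor genes lay slightly above 0. Rrn3, which brings the enzyme to the promoter and has the highest mean signal of this role, gave 12.45, 12.45 and 12.49 against 12.48, 12.55 and 12.47 (difference 0.04, 95% interval -0.08 to 0.16). Ubtf, which binds the ribosomal DNA promoter, differed by 0.02 (95% interval -0.10 to 0.14). Polr1c, a subunit shared with RNA polymerase III, differed by -0.02.

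Among the snoRNP genes, none of 7 passed limma, none had an unadjusted p under 0.05 and 5 were below 0, with a median of -0.028 log2 units and a range of -0.07 to 0.01. This median was -0.059 without wild-type sample 1, 0.004 without wild-type sample 2, -0.043 without knockout sample 1 and -0.064 without knockout sample 2, so its sign was not stable. Nhp2, of the particles that convert uridine to pseudouridine, gave 11.69, 11.70 and 11.80 in the wild type against 11.70, 11.66 and 11.60 in the knockout, and the groups overlapped (difference -0.07, limma adjusted p = 0.813). Gar1, of the same particles, gave 12.45, 12.54 and 12.42 against 12.46, 12.42 and 12.34, also with overlap (difference -0.06). Nolc1, a chaperone of snoRNPs, gave 12.42, 12.49 and 12.43 against 12.38, 12.42 and 12.36, with knockout sample 2 level with wild-type sample 1 to 2 decimals (difference -0.06, limma adjusted p = 0.83). Dkc1, the pseudouridine synthase, differed by -0.02. Genes of the methylation-guiding particles lay near 0, where their methyltransferase Fbl differed by -0.03 and their core protein Nop58 by 0.01. Nop56, with the highest mean signal of this role, gave 13.51, 13.54 and 13.58 against 13.57, 13.56 and 13.52 (95% interval -0.11 to 0.12).

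Ncl, Npm1 and Ddx21, which act at several steps, all had lower means in the knockout, and none passed limma or had an unadjusted p under 0.05. Npm1 (nucleophosmin), a histone and ribosome chaperone, gave 13.25, 13.16 and 13.12 in the wild type against 13.05, 13.03 and 13.11 in the knockout. Wild-type sample 3 and knockout sample 3 nearly met (difference -0.11 ± 0.058, SE; limma adjusted p = 0.61). The helicase gene Ddx21 gave 12.74, 12.78 and 12.73 against 12.68, 12.71 and 12.61, without overlap (difference -0.09, limma adjusted p = 0.703). Ncl (nucleolin) gave 13.63, 13.62 and 13.53 against 13.52, 13.50 and 13.57, with overlap (difference -0.06, limma adjusted p = 0.848).

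Further genes of ribosome biogenesis were taken from 5 lists of their subunits, enzymes and assembly factors. Over these 5 lists with 97 measured genes of 102 listed, none passed limma. At an unadjusted limma p under 0.05, 5 were lower and none higher, beside 6.25% and 7.20% of all genes. Of the 97 genes 71 lay below 0, or 73.2% beside 51.8% of all genes, with a median of -0.042 log2 units. Of 30 further small-subunit factors 21 were below 0 (median -0.039), Bms1, a GTPase of the processome, differing by -0.18 and Utp11 by -0.22 (limma adjusted p = 0.157 and 0.224). Of 34 further large-subunit factors 29 were below 0 (median -0.056), with Mdn1, the giant ATPase that remodels large-subunit precursors, at -0.31 and Urb1 at -0.13 (limma adjusted p = 0.411 and 0.491). Of 13 RNA exosome genes, whose complex trims precursor RNA, 11 were below 0 (median -0.077), Exosc3 and Exosc1 differing by -0.13 and -0.10 (limma adjusted p = 0.458 and 0.631). Of 10 further snoRNP factors 6 were below 0 (median -0.025), with Pih1d1 at 0.17 and Nop10 at -0.10. Of 10 further RNA polymerase I factors 4 were below 0 (median 0.015), with Ttf1 at 0.10 and Taf1a at -0.08 (limma adjusted p from 0.552 to 0.736 for these 4 genes). Whether the lists differ from each other was not tested.

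The 56 measured ribosomal protein genes of 81 listed had a median of -0.006 log2 units and a range of -0.09 to 0.09, and none passed limma or had an unadjusted p under 0.05. The widest of the small-subunit proteins by p was Rps7 at 0.05, followed by Rps13 at -0.04, and of the large-subunit proteins Rplp2 at 0.09 and Rpl27 at -0.05 (limma adjusted p from 0.756 to 0.898). Ribosomal protein genes have many near-identical copies in the genome, so their probe sets may detect more than 1 locus. Of 10 RNA polymerase III genes, 3 were below 0. Polr3gl, which encodes an alternative subunit of that enzyme, rose from 8.57 ± 0.046 to 9.01 ± 0.078 (SD, n = 3; difference 0.44, limma adjusted p = 0.0159), and 9 did not pass. The call of Polr3gl held in only 1 of 6 fits with a sample left out, the fit without knockout sample 1 (highest limma adjusted p 0.0832). Myc itself gave 13.77, 13.73 and 13.73 against 13.59, 13.64 and 13.64, without overlap, and did not pass (difference -0.12 ± 0.047, SE; limma adjusted p = 0.417). Of 19 proliferation genes none passed limma, 1 had an unadjusted p under 0.05, 12 were below 0 and the median was -0.024, with Aurka at -0.14 and Bub1 at -0.06 (limma adjusted p = 0.36 and 0.799).

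**Figure D5:**
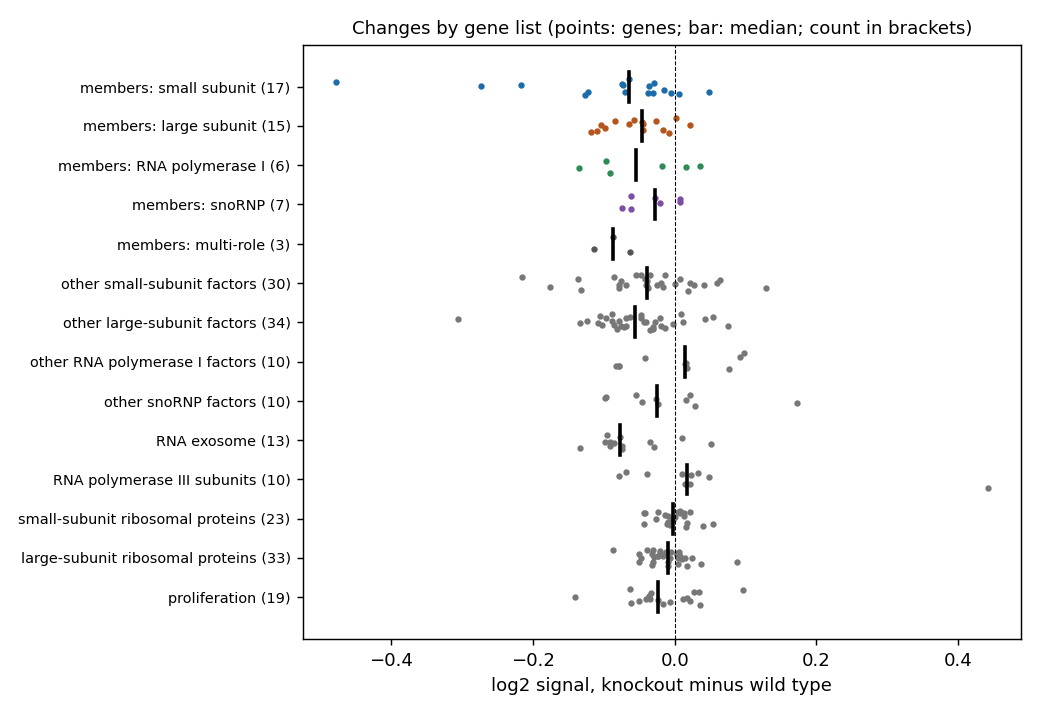
Change in log2 signal, knockout minus wild type, of each measured gene (points) with the median (black bar) of each list, the described genes by role in colour and other lists in grey, the number of genes in brackets. The medians of the coloured lists lie between -0.087 and -0.028, those of the ribosomal protein lists at -0.003 and -0.01, and the separate grey point at 0.44 is Polr3gl.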

How the data were processed

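The deposited table holds log2 values, 1 per probe set and array, that the authors made with RMA (background correction, quantile normalization and probe-set summary) and Partek 6.5, per the submitters' processing notes; their range (2.58 to 14.7) shows the log2 scale. The sources used here name no background settings, chip definition or test. RMA compresses differences of dim probe sets. Genotypes and sample numbers came from the titles. Probe sets were named through the platform annotation (21789 of 35556 with 1 symbol, 1621 with several, 12146 with none listed).

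Knockout was compared with wild type with limma 3.58.1 in R 4.3.3 (no covariate or filter, all 6 arrays), adjusted over all 35556 probe sets at 0.05. An exact permutation test of 3 against 3 cannot go below p = 0.1 and was not used. The fit was tested on simulated data. The genes, their roles, the lists and the rule for naming genes (values in every sample for the 3 of smallest p and the brightest of each role, 2 of each other list) were chosen with earlier results of these data known. No set was tested. The number of arrays limits the precision, and signals of different probe sets are not comparable as levels. Alternatives were a replicate block, filters, normalizations, variance settings, array weights, leaving out each sample, other thresholds and other probe sets per gene.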

Additional observations from a re-analysis of the deposited data

How the results depend on the processing

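The number of genes called lower moved with the processing, between 0 and 3 of 48, and none was called higher in any setting. It was 3 with the dimmest 40% of probe sets left out, with only single-gene probe sets, with quantile normalization, cyclic loess, trend and robust settings, probe sets averaged per gene, or an adjusted p under 0.1, and 2 with array weights or with arrays centred on bright genes, the last added after seeing the data. It was 0 in all 6 fits that left out 1 sample (0 to 0), in which the probe sets called fell from 1095 to between 565 and 857. Sample numbers are shared between genotypes, but no label says that they mark pairs, so they were not treated as pairs. Deviations of same-numbered samples had r = -0.12, 0.02 and 0.26, and those of differently numbered samples r from -0.35 to 0.31. With a replicate block 0 of the 48 genes and 544 probe sets were called, Utp3 having a limma adjusted p of 0.132 and Polr3gl 0.0952.

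Medians over fits that left out 1 sample ran from -0.072 to -0.042 for all 48 genes, -0.084 to -0.042 for the small subunit, -0.063 to -0.039 for the large subunit, -0.091 to -0.016 for RNA polymerase I and -0.064 to 0.004 for snoRNPs, where the sign was not stable. The near-zero change of Imp3 turned to 0.008 with quantile normalization and 0.002 with cyclic loess, and over fits without 1 sample it ran from -0.04 to 0.028 and that of Nop56 from -0.01 to 0.024. Probe sets numbered among genes of the right chromosome, added after seeing the data, left 1 gene called. This setting reused the main fit and exchanged the probe sets of Wdr12, Ddx18 and Mrto4 only. The call of Utp3, which has a single probe set, could not change in it. The cause of these differences was not tested.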
